A study of Mus musculus with 22 samples.

Results

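NRF2 (gene Nfe2l2), glutathione and antioxidant genes were followed in astrocytes of the mouse optic nerve after the pressure in the eye had been raised. The group holds 42 of the 29367 genes in the deposited table, chosen by gene symbol from a list of redox regulators and enzymes, and all 42 passed the filter on low counts in every comparison. At 30 days the glutathione peroxidase genes and those that make or recycle glutathione differed in opposite directions between 2 neighbouring regions of the nerve. All 5 glutathione peroxidases were 1.62- to 2.62-fold higher in the optic nerve head (ONH), where retinal axons leave the eye, and all 4 genes that make or recycle glutathione were at 0.468 to 0.811 of their ONP level there, ONP being the optic nerve proper behind the head. Among these 4, the calls of Gclc and Gclm held across all alternatives run, and those of Gss and Gsr did not. Of the 5 peroxidases, the calls of Gpx1, Gpx4, Gpx7 and Gpx8 held, and that of Gpx3 did not. Regional differences were common at 30 days. Of all 15133 genes tested, 21.8% were higher in the ONH and 20% lower, at an adjusted p under 0.05 by edgeR.

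The 22 libraries are RNA-seq of mRNA bound to HA-tagged ribosomes, 4 from each region taken 7 days and 7 from each region taken 30 days after microbeads were injected to raise intraocular pressure. All groups came from the same cross, B6J.129(Cg)-Rpl22tm1.1Psam/SjJ mice carrying a Cre-dependent HA tag on the ribosomal protein RPL22 with B6.Cg-Tg mice of the (GFAP-Cre) line 73.12Mvs/J, in which a mouse Gfap promoter drives Cre. Animals were 3 to 4 months old, carried no disease allele (genotype WT in the labels), and each library pooled tissue of 4 mice, 2 males and 2 females. Every group had received microbeads and uninjected tissue is not analysed here, so that the comparisons are of region and of time after injection, not of raised against normal pressure. The tag reports ribosomes of cells with a history of Gfap promoter activity, and mRNA of other cells that stays on the beads is counted as well.

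NRF2 is a transcription factor that KEAP1 holds in the cytoplasm and marks for degradation until oxidants or electrophiles modify KEAP1. It then binds antioxidant response elements (AREs) in genes for glutathione synthesis, thioredoxin reduction, NADPH supply and quinone and haem breakdown. Astrocytes are known as the main glutathione makers of nervous tissue and pass its building blocks to neurons, while glutathione peroxidases and peroxiredoxins spend reducing power to remove peroxides.

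Libraries held 16292489 to 33307092 counts. The smallest amount taken as detectable, 3 counts, was 0.0897 to 0.191 CPM (counts scaled to the size of the library), and covers counting error only. The 10 astrocyte markers (among them Gfap, Aqp4 and Aldh1l1) summed to 15800 to 35000 CPM in every library. The 10 oligodendrocyte markers (among them Mbp and Mog) were also high, at 82200 to 108000 CPM in the 7 day ONP, 25900 to 83800 in the 30 day ONP, 18900 to 35900 in the 7 day ONH and 13800 to 41600 in the 30 day ONH. Photoreceptor and pigment cell markers were higher in the ONH than in the ONP at 30 days in 6 of 6 genes each. Photoreceptor markers summed to 157 to 5690 CPM in the 7 day ONH and 103 to 2290 in the 30 day ONH. In the ONP they were at 8.92 to 128 and 2.4 to 50.1. The 8 mural cell and fibroblast markers were at 707 to 2080 and 432 to 946 CPM in the ONH. In the ONP they were at 194 to 661 and 118 to 632. The part of RNA of these cells in the region differences was not tested. In bulk samples, fewer cells of a type and less RNA per cell cannot be told apart.

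The regulator and its inhibitor were measured well above the detection limit in all libraries. Nfe2l2 was at 61.2, 75.3, 111 and 136 CPM in the 4 ONH libraries and at 99.5, 103, 108 and 120 in the 4 ONP libraries at 7 days. At 30 days its lowest, median and highest values were 56.9, 75.4 and 98.4 CPM in the ONH and 72.4, 83.3 and 124 in the ONP. The groups overlapped in all comparisons. The Nfe2l2 log2 fold change (log2FC) was -0.40 ± 0.22 (SE) for 30 vs 7 days in the ONH, -0.28 ± 0.13 in the ONP, and -0.29 ± 0.14 for ONH vs ONP at 30 days, with adjusted p-values of 0.425, 0.168 and 0.112 by edgeR's quasi-likelihood test. With the region comparison blocked by replicate number, the last value was -0.30 with adjusted p = 0.0436. Without ONH replicate 7 it was -0.40 (adjusted p = 0.0310, edgeR). The ONP value over time was -0.36 without the 30 day replicate 7 (adjusted p = 0.0408, edgeR). It was -0.41 without the 30 day replicates 5 and 7 (adjusted p = 0.00839, edgeR).

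Keap1 overlapped between groups in the same way. It was at 71.2 to 93.7 CPM in the ONH and 79.7 to 93.3 in the ONP at 7 days. At 30 days it was at 65.3 to 86.9 CPM in the ONH and 79.1 to 94.2 in the ONP. Its log2FC for ONH vs ONP at 30 days was -0.21 ± 0.09 (adjusted p = 0.0644, edgeR). It passed with DESeq2 (adjusted p = 0.0361), and in edgeR with RLE scaling (0.0474) or without ONH replicate 3 (0.0287). Of its 31-base words, 9.02% also occur in a gene on the opposite strand, which a kit that does not mark strand cannot separate. mRNA level is not a measure of NRF2 activity, which is set largely by protein stability.

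Levels between genes were compared only per kilobase of transcript. Prdx6, a peroxiredoxin that reduces phospholipid peroxides, stood first in each group, at a mean of 3120 CPM per kb in the 7 day ONH, 3461 in the 30 day ONH, 2627 in the 7 day ONP and 4000 in the 30 day ONP. Gpx1, the cytosolic glutathione peroxidase, was at 2268 and 2971 CPM per kb in the ONH at 7 and 30 days. In the ONP it was at 862 and 1124. Osgin1, an inducible NRF2 target, stood last in each group, at 0.895 to 2.17 CPM per kb.

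The largest differences among the members were between regions. At 30 days, 28 of 42 members passed an adjusted p under 0.05 by edgeR, against 41.8% of the 15133 genes tested. Of these, 18 were higher in the ONH (21.8% of all genes) and 10 were higher in the ONP (20% of all genes). At an unadjusted p under 0.05 there were 30 members, against 49.6% of all genes. The members' median log2FC was 0.14, against -0.01 over all genes. The groups did not overlap for 6 members higher in the ONH (9.26% of all genes) and 4 lower (7.08%). At 7 days, with 4 libraries per region, 7 members passed, against 13.2% of 14752 genes. Of these, 6 were higher in the ONH (6.34% of all genes) and 1 in the ONP (6.81%). At an unadjusted p under 0.05 there were 19 members, against 28.9% of all genes, and the log2FC was above 0 in 28 members, against 54.2% of all genes. The regions did not overlap at 7 days for 9 members higher in the ONH (9.9% of all genes) and 2 lower (11.8%). With scaling by library size only, which moved the median log2FC of all genes to 0.18, 11 were higher and 0 lower. With TMM scaling the members' median log2FC at 7 days was 0.27, against 0.07 over all genes.

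**Figure D1:**
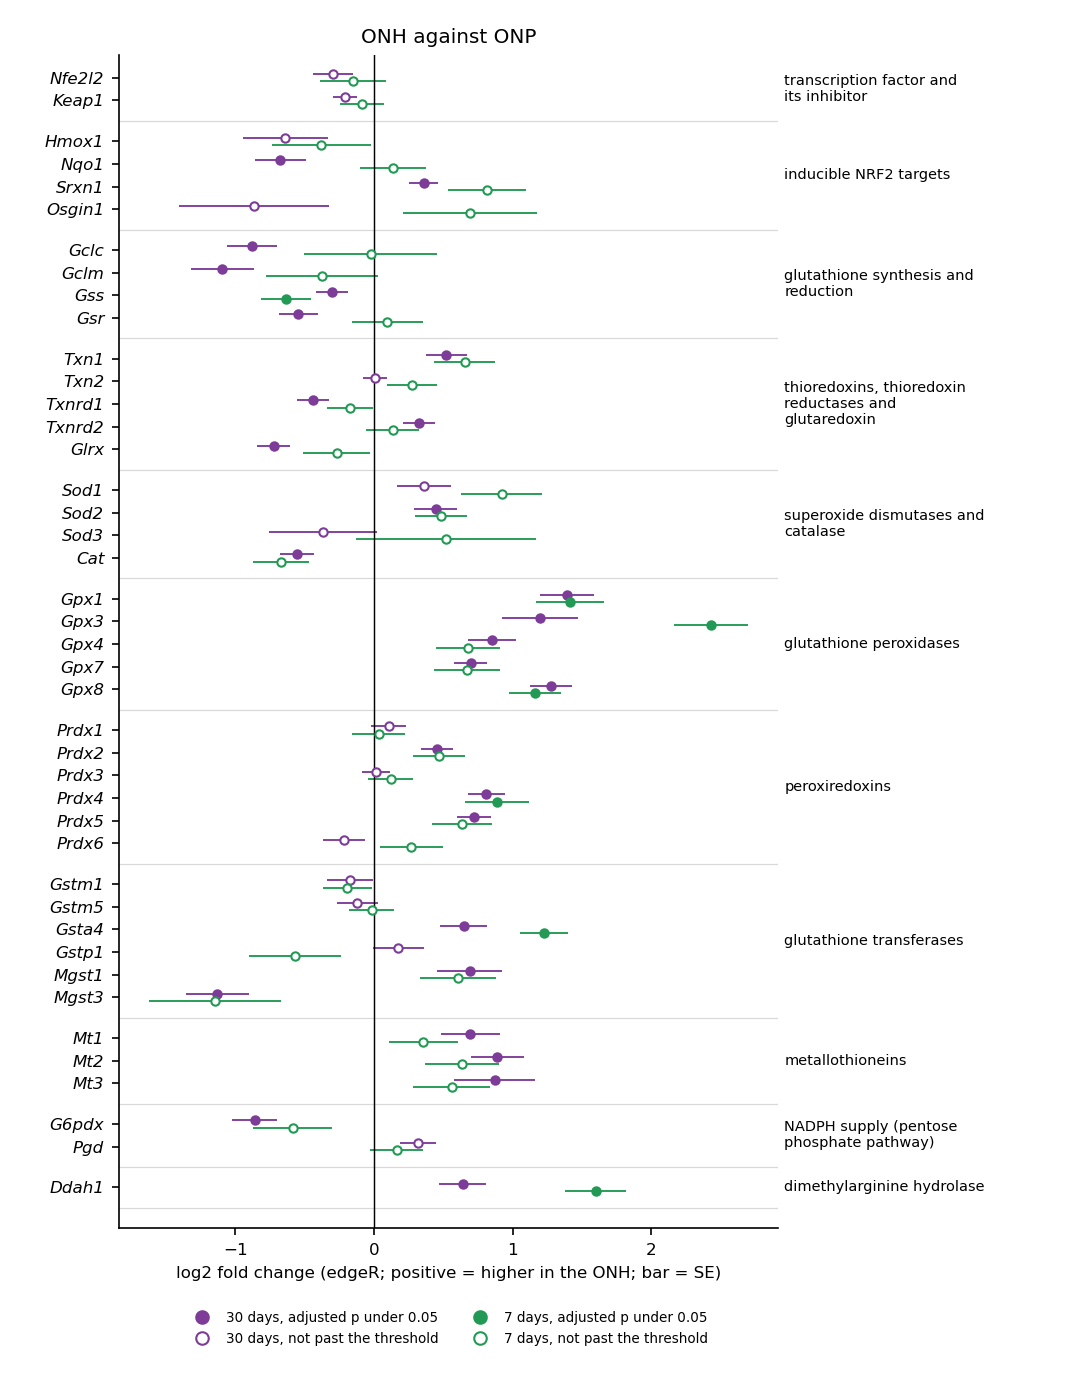
The log2 fold change of ONH against ONP for the 42 members, ordered by role (x axis, log2 units; bars are SE; purple, 30 days with 7 libraries per region; green, 7 days with 4 per region; filled, adjusted p under 0.05 by edgeR). The 5 glutathione peroxidases lie right of 0 at both times, between 0.67 and 2.43, and the 4 synthesis and reduction genes lie left of 0 at 30 days, between -1.10 and -0.30.

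The promoters of the members were searched for the ARE core, TGACNNNGC, on both strands from 250 bases before to 50 bases after the annotated start of transcription. RefSeq windows (GRCm38.p6) were at hand for 36 of the 42 members. The core was found in 11 of them (30.6%), and in 14% of the windows of 27025 genes. The members with a match were Nfe2l2, Srxn1, Gclm, Txnrd1, Sod1, Prdx1, Gstm5, Mgst1, Mt2, G6pdx and Pgd. Among those called between regions at 30 days, Gclm, Txnrd1 and G6pdx were higher in the ONP and Srxn1, Mgst1 and Mt2 in the ONH, so that members with the core were found on both sides. The core can overlap an AP-1 site (TGACTCA), and a match is a description of the letters only.

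To let these matches be compared, 6 windows upstream of members with a called difference are given on the strand of the gene, 5′ to 3′, with the ARE core or its reverse complement in capitals.
Gclm, chr3:122245398-122245456, plus strand: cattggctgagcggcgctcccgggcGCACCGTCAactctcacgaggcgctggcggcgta
Txnrd1, chr10:82859089-82859147, plus strand: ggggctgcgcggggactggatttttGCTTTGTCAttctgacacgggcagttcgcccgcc
G6pdx, chrX:74428904-74428962, minus strand: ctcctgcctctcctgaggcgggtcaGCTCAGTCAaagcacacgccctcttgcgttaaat
Mgst1, chr6:138140446-138140504, plus strand: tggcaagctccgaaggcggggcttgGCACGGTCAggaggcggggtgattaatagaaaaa
Mt2, chr8:94172514-94172572, plus strand: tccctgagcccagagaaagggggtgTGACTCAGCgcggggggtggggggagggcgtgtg
Sod1, chr16:90220681-90220739, plus strand: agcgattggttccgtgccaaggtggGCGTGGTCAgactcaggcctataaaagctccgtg
The cores begin 134, 92, 57, 56, 79 and 56 bases before the start in this order. That of Mt2 holds the AP-1 letters.

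Enzymes of the glutathione peroxidase family reduce peroxides, and the genes of all 5 were higher in the ONH at 30 days. Gpx1 was at 1577, 2280, 2609 and 3258 CPM in the 7 day ONH libraries and at 640, 939, 1046 and 1070 in the 7 day ONP libraries. At 30 days its lowest, median and highest values were 2322, 3011 and 5160 CPM in the ONH and 792, 1248 and 1643 in the ONP. The regions did not overlap at either time. The Gpx1 log2FC was 1.39 ± 0.195 (SE) at 30 days (adjusted p = 5.82e-05, edgeR) and 1.42 ± 0.24 at 7 days (adjusted p = 0.00377).

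Gpx8, an enzyme of the endoplasmic reticulum, was separated by region in the same way. It was at 202, 206, 267 and 303 CPM in the ONH and at 91.7, 106, 116 and 129 in the ONP at 7 days. At 30 days its lowest, median and highest values were 176, 252 and 306 CPM in the ONH against 66.5, 96.6 and 138 in the ONP. Its log2FC was 1.28 ± 0.15 at 30 days, with the lowest adjusted p of any member (1.30e-05, edgeR), and 1.16 ± 0.19 at 7 days (adjusted p = 0.00260).

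Gpx3, the secreted glutathione peroxidase, had the largest difference between regions among the members at 7 days, 5.39-fold. It was at 95.8, 154, 159 and 215 CPM in the ONH and 21.1, 29.5, 31.3 and 36.0 in the ONP. At 30 days its lowest, median and highest values were 73.4, 143 and 167 CPM in the ONH and 22.8, 51.4 and 95.8 in the ONP, and 6 of 7 ONH libraries were above all ONP libraries. The log2FC was 2.43 ± 0.27 at 7 days (adjusted p = 3.49e-04, edgeR) and 1.198 ± 0.27 at 30 days (adjusted p = 0.00248). The exception at 30 days was ONH replicate 7, the lowest ONH library, which also had the highest oligodendrocyte marker sum of that group.

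Gpx4, which protects membranes from lipid peroxidation, and Gpx7, a second peroxidase of the endoplasmic reticulum, had log2FC of 0.85 ± 0.17 and 0.70 ± 0.12 at 30 days (adjusted p = 0.00104 and 2.98e-04, edgeR). At 7 days they were at 0.68 ± 0.23 and 0.67 ± 0.24, with adjusted p = 0.0823 and 0.0912. A processed pseudogene shares 38.7% of the 31-base words of Gpx4, so that its counts could be split.

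Genes that make and recycle glutathione were lower in the ONH at 30 days. GCLC and GCLM form glutamate-cysteine ligase, the rate-limiting enzyme of glutathione synthesis. Gclc had its lowest, median and highest values at 21.7, 29.9 and 30.7 CPM in the 30 day ONH and at 29.8, 56.1 and 64.3 in the 30 day ONP. Gclm was at 26.2, 35.6 and 61.5 CPM in the ONH and 45.9, 94.9 and 107 in the ONP. In both genes ONP replicates 1 and 2 were low and the other 5 ONP libraries were above all ONH libraries. The log2FC was -0.88 ± 0.18 for Gclc and -1.10 ± 0.23 for Gclm (adjusted p = 0.00113 and 0.00123, edgeR).

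At 7 days the same 2 genes were spread widely within each region. Gclc was at 12.2, 30.9, 57.2 and 57.6 CPM in the ONH and 20.6, 27.1, 57.4 and 58.3 in the ONP. Gclm was at 22.2, 51.6, 59.1 and 78.9 CPM in the ONH and 38.6, 46.0, 86.9 and 108 in the ONP. The 7 day differences were -0.02 ± 0.48 and -0.37 ± 0.41 on the log2 scale, within the spread of the libraries.

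Gsr, the reductase that regenerates glutathione with NADPH, was at 43.2, 50.2 and 60.2 CPM (lowest, median, highest) in the 30 day ONH and 43.9, 80.1 and 92.4 in the 30 day ONP. Its log2FC was -0.54 ± 0.14 (adjusted p = 0.00568, edgeR). At 7 days it was at 36.0, 57.7, 57.8 and 80.6 CPM in the ONH and 42.5, 49.3, 60.4 and 68.3 in the ONP, with no separation. Gss, the second enzyme of synthesis, was 1 of the 7 members called at 7 days. It was at 70.1 to 115 CPM in the ONH and 138 to 176 in the ONP without overlap (log2FC -0.63 ± 0.18, adjusted p = 0.0432, edgeR). Its 30 day log2FC was -0.30 ± 0.12 with adjusted p = 0.0486, and 0.0513 with the replicate block. The 30 day Gss call was lost without any 1 of 10 libraries (ONH replicates 1, 2, 3, 4, 6 and 7, ONP replicates 1, 4, 5 and 6), with adjusted p = 0.0520 to 0.0880. The 7 day call was lost without ONH library 1 or 5 or without any 1 of the ONP libraries, with adjusted p = 0.0504 to 0.134.

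**Figure D2:**
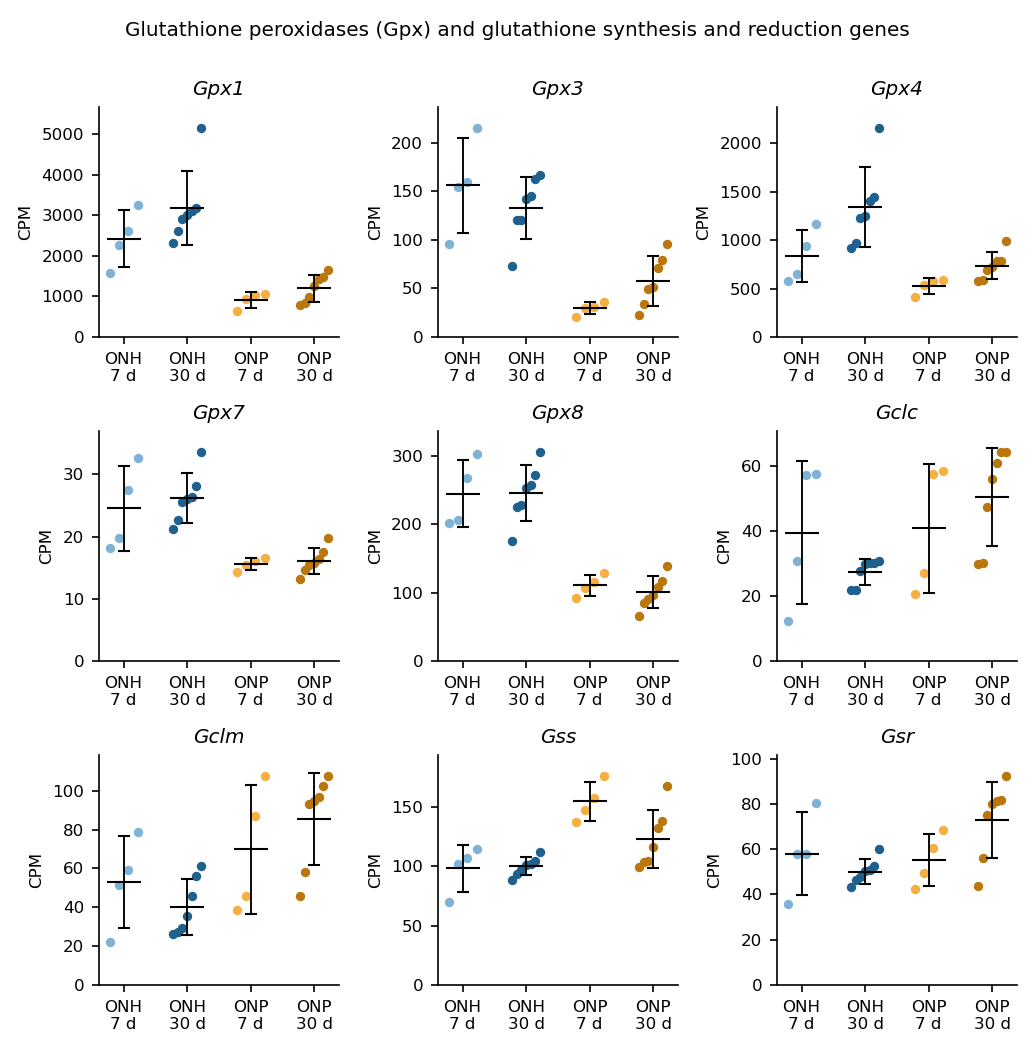
CPM of the 5 glutathione peroxidases and the 4 glutathione synthesis and reduction genes in every library (points; black bars are mean ± SD; 4 libraries per group at 7 days and 7 at 30 days; each y axis starts at 0). Gpx1 and Gpx8 separate the regions at both times, while Gclc, Gclm and Gsr separate them poorly at 7 days and have ONP medians of 56.1, 94.9 and 80.1 CPM against ONH medians of 29.9, 35.6 and 50.2 at 30 days.

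Peroxiredoxins, which remove peroxides, were higher in the ONH at 30 days in 3 of 6 members (Prdx2, Prdx4 and Prdx5). Prdx4, the secretory-pathway member, was at 76.5, 83.0, 83.4 and 152 CPM in the ONH and 49.7, 50.6, 53.9 and 61.7 in the ONP at 7 days. At 30 days its lowest, median and highest values were 93.3, 109 and 164 CPM in the ONH and 50.4, 61.8 and 76.9 in the ONP. It did not overlap between regions at either time, with log2FC of 0.81 ± 0.13 at 30 days (adjusted p = 2.28e-04, edgeR) and 0.89 ± 0.23 at 7 days (adjusted p = 0.0299). The 7 day call of Prdx4 was lost without any 1 of the ONP libraries (adjusted p = 0.0619 to 0.0927). Prdx5 and Prdx2 had log2FC of 0.72 ± 0.12 and 0.46 ± 0.12 at 30 days. Prdx1, Prdx3 and Prdx6 did not pass, at 0.11, 0.02 and -0.22.

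The thioredoxin branch was divided at 30 days. Txn1, the cytosolic thioredoxin, and Txnrd2, the mitochondrial reductase, were higher in the ONH (log2FC 0.52 ± 0.15 and 0.32 ± 0.11). The Txnrd2 call was lost without any 1 of ONH replicates 6 and 7 and ONP replicates 2, 3, 4 and 6 (adjusted p = 0.0540 to 0.0775). Txnrd1, the cytosolic reductase and an NRF2 target, was lower (-0.44 ± 0.11, adjusted p = 0.00557, edgeR). Glrx, glutaredoxin, which removes glutathione from protein thiols, was at 19.2, 21.96 and 28.0 CPM in the 30 day ONH and 27.1, 37.2 and 44.1 in the 30 day ONP. 6 of 7 ONH libraries were below all ONP libraries, and the log2FC was -0.72 ± 0.12 (adjusted p = 2.14e-04, edgeR).

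Among inducible NRF2 targets, Nqo1, a quinone reductase, was lower in the ONH at 30 days and Srxn1, sulfiredoxin, which repairs overoxidized peroxiredoxins, was higher. Nqo1 was at 13.1, 20.4 and 32.8 CPM in the 30 day ONH and 23.6, 34.1 and 41.2 in the 30 day ONP (log2FC -0.68 ± 0.18, adjusted p = 0.00760, edgeR). The Srxn1 log2FC was 0.36 ± 0.10 (adjusted p = 0.0111). Hmox1, haem oxygenase 1, was at -0.64 (adjusted p = 0.108), and at -0.80 with adjusted p = 0.00162 when blocked by replicate. Without ONH replicate 7 it was at -1.13 (adjusted p = 1.17e-04), and with summed oligodendrocyte markers as a covariate at 0.02 (adjusted p = 0.979). Replicate 7 of both regions, with the highest microglial marker sums of their groups at 30 days (3400 and 3640 CPM), had the highest Hmox1, at 43.9 and 42.3 CPM. These 2 libraries also had the highest sums of 7 erythroid (red blood cell) markers of their groups, 2613 and 408 CPM. ONP replicate 5 had a microglial sum of 3082 CPM and Hmox1 of no more than 27.0 CPM. The part of microglial or erythroid RNA in the result was not tested. Osgin1 did not pass.

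NADPH for these reductases comes largely from the pentose phosphate pathway. G6pdx, its first enzyme, was at 27.5, 52.0 and 63.0 CPM in the 30 day ONH and 81.2, 89.9 and 103 in the 30 day ONP, with no overlap (log2FC -0.86 ± 0.16, adjusted p = 6.11e-04, edgeR). At 7 days it was at 30.5, 60.2, 73.8 and 93.9 CPM in the ONH against 88.4, 93.4, 100.1 and 112 in the ONP, and did not pass. G6pdx overlaps Ikbkg on the opposite strand and 23.6% of its 31-base words occur in other genes. Pgd, further along the pathway, was at 0.32 ± 0.13 on the log2 scale at 30 days (adjusted p = 0.0566), and at 0.33 with adjusted p = 0.0295 when blocked by replicate.

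Glutathione transferases, which attach glutathione to electrophiles, did not move as 1 group. Gsta4, whose substrates are products of lipid peroxidation, was at 96.3, 101, 117 and 133 CPM in the 7 day ONH and 41.6, 45.0, 49.3 and 58.3 in the 7 day ONP. Its log2FC was 1.22 ± 0.17 at 7 days (adjusted p = 0.00140, edgeR) and 0.65 ± 0.17 at 30 days (adjusted p = 0.00622). Mgst1, a microsomal member, was also higher in the ONH at 30 days (0.69 ± 0.24), but its call was lost without any 1 of ONH replicates 1 and 6 and ONP replicates 4 to 7 (adjusted p = 0.0517 to 0.0707), and with summed oligodendrocyte markers as a covariate its value was -0.06. Mgst3 was lower without overlap (-1.13 ± 0.23, adjusted p = 0.00107). Gstm1, Gstm5 and Gstp1 did not pass. A second copy of the gene, Gstp2, shares 38.5% of the 31-base words of Gstp1.

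Metallothioneins bind zinc and copper and scavenge radicals, and Mt1, Mt2 and Mt3 were each higher in the ONH at 30 days. Mt2 did not overlap between regions, at 155, 185 and 264 CPM in the ONH and 61.9, 128 and 144 in the ONP (log2FC 0.89 ± 0.19, adjusted p = 0.00175, edgeR). An antisense gene covers 73.5% of the exonic bases of Mt2, and the 2 cannot be told apart here. Mt1 and Mt3 had log2FC of 0.69 ± 0.21 and 0.87 ± 0.29 (adjusted p = 0.0160 and 0.0251). The Mt3 call was lost without ONH replicate 1, ONH replicate 6 or ONP replicate 6 (adjusted p = 0.0530 to 0.0622).

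Metallothionein promoters carry metal response elements (MREs), bound by MTF1 when zinc is free. The MRE core, TGCACNC or TGCGCNC on either strand, was found in 14 of 36 members (38.9%) and in 28.2% of all windows, and Mt1, Mt2 and Mt3 were among the 14. Mt3 had no match wholly before the start, so that no window is given for it. The matches of Mt1 and Mt2 that lie nearest before the start are given because these genes were both higher in the 30 day ONH.
Mt1, chr8:94179041-94179088, plus strand: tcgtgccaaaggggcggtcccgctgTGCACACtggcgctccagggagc
Mt2, chr8:94172543-94172599, plus strand: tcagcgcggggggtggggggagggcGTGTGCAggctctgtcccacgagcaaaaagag
These begin 23 and 50 bases before the start, and the second is written on the reverse strand of the core.

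Of superoxide dismutases and catalase, Sod2, the mitochondrial enzyme, was higher in the ONH at 30 days (0.45 ± 0.16, adjusted p = 0.0314, edgeR). That call was lost without any 1 of ONH replicates 1, 6 and 7 and ONP replicates 4, 5 and 6 (adjusted p = 0.0548 to 0.0735). Cat, the peroxisomal catalase, was lower without overlap, at 82.0 to 158 CPM in the ONH and 170.4 to 192 in the ONP (-0.56 ± 0.12, adjusted p = 0.00197). Ddah1, which breaks down the endogenous nitric oxide synthase inhibitor dimethylarginine, was at 145, 168, 198 and 240 CPM in the 7 day ONH against 43.8, 64.2, 68.8 and 74.6 in the 7 day ONP. It was 3.03-fold higher in the ONH at 7 days (log2FC 1.60 ± 0.22, adjusted p = 0.00118) and 1.56-fold at 30 days (0.64 ± 0.17, adjusted p = 0.00659).

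Oligodendrocyte markers were lower in the ONH at both times, in 8 of 10 genes at 30 days (median log2FC -0.90) and 10 of 10 at 7 days (-1.86). With the log2 of their sum as a covariate at 30 days, 17 members passed, 7 higher in the ONH and 10 lower, of which 14 were among the 28. In that fit 25.3% of all genes passed, 13.1% higher and 12.2% lower. Gpx1, Gpx4, Gpx7, Gpx8, Prdx4, Prdx5, Gclc, Gclm, Gsr, Glrx, Txnrd1, Nqo1, Cat and G6pdx passed, and Gpx3, Gss, the metallothioneins and Ddah1 did not. The Gss log2FC was then -0.0057 (adjusted p = 0.982). Short transcripts were higher in the ONH as well. Transcripts under 1000 bases had a median log2FC of 0.62 (922 genes), those over 4000 bases -0.10 (4209 genes), and 77 ribosomal protein genes 0.78. Across the 42 members, which are not independent replicates, Pearson's r of log2FC with log transcript length was -0.49. With a correction for length and GC content, 21 members passed, 11 higher and 10 lower, against 36.7% of all genes, 20% higher and 16.7% lower. All 5 glutathione peroxidases, Gclc, Gclm and Gss were among them, and Gsr and the 3 metallothioneins were not. The members' median was then -0.10, with the sign opposite to that of the uncorrected median. The part of oligodendrocyte RNA and of transcript length in the region difference was not tested beyond these fits.

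Across all 25 alternatives run on this comparison, the calls of 12 of the 28 members held, namely Gpx1, Gpx4, Gpx7, Gpx8, Prdx4, Prdx5, Gclc, Gclm, Glrx, Nqo1, Cat and G6pdx. At 7 days the calls of 5 of 7 members held across 17 alternatives, Gpx1, Gpx3, Gpx8, Gsta4 and Ddah1. The oligodendrocyte covariate was not among those 17. At 30 days Gpx1 and Gpx8 passed with it. Gpx3, Gsta4 and Ddah1 did not, at log2FC of 0.66, 0.19 and 0.08 (adjusted p = 0.135, 0.470 and 0.737, edgeR). Gsta4 also did not pass at 30 days with the length and GC correction (0.29, adjusted p = 0.182, edgeR).

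In the ONP, 8 of 42 members differed between 30 and 7 days, against 17% of 15491 genes. Nqo1, Txn2, Glrx, Sod1, Prdx2 and Ddah1 rose (7.82% of all genes rose) and Cat and Gstp1 fell (9.21% of all genes fell). At an unadjusted p under 0.05 there were 19 members, against 32.6% of all genes. The members' median log2FC was 0.31, against -0.01 over all genes. It was 0.02, against 0.01, with summed oligodendrocyte markers as a covariate, and 0.19, against -0.02, with the correction for length and GC content. The groups did not overlap for 5 members that were higher (6.2% of all genes) and 1 that was lower (5.79%). The count was 4 without the 7 day library 6 (9.12% of all genes) and 16 without the 30 day replicate 5 (20.9%). With scaling by library size only, which moved the median log2FC of all genes to 0.11, 12 members were higher and 1 was lower.

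**Figure D3:**
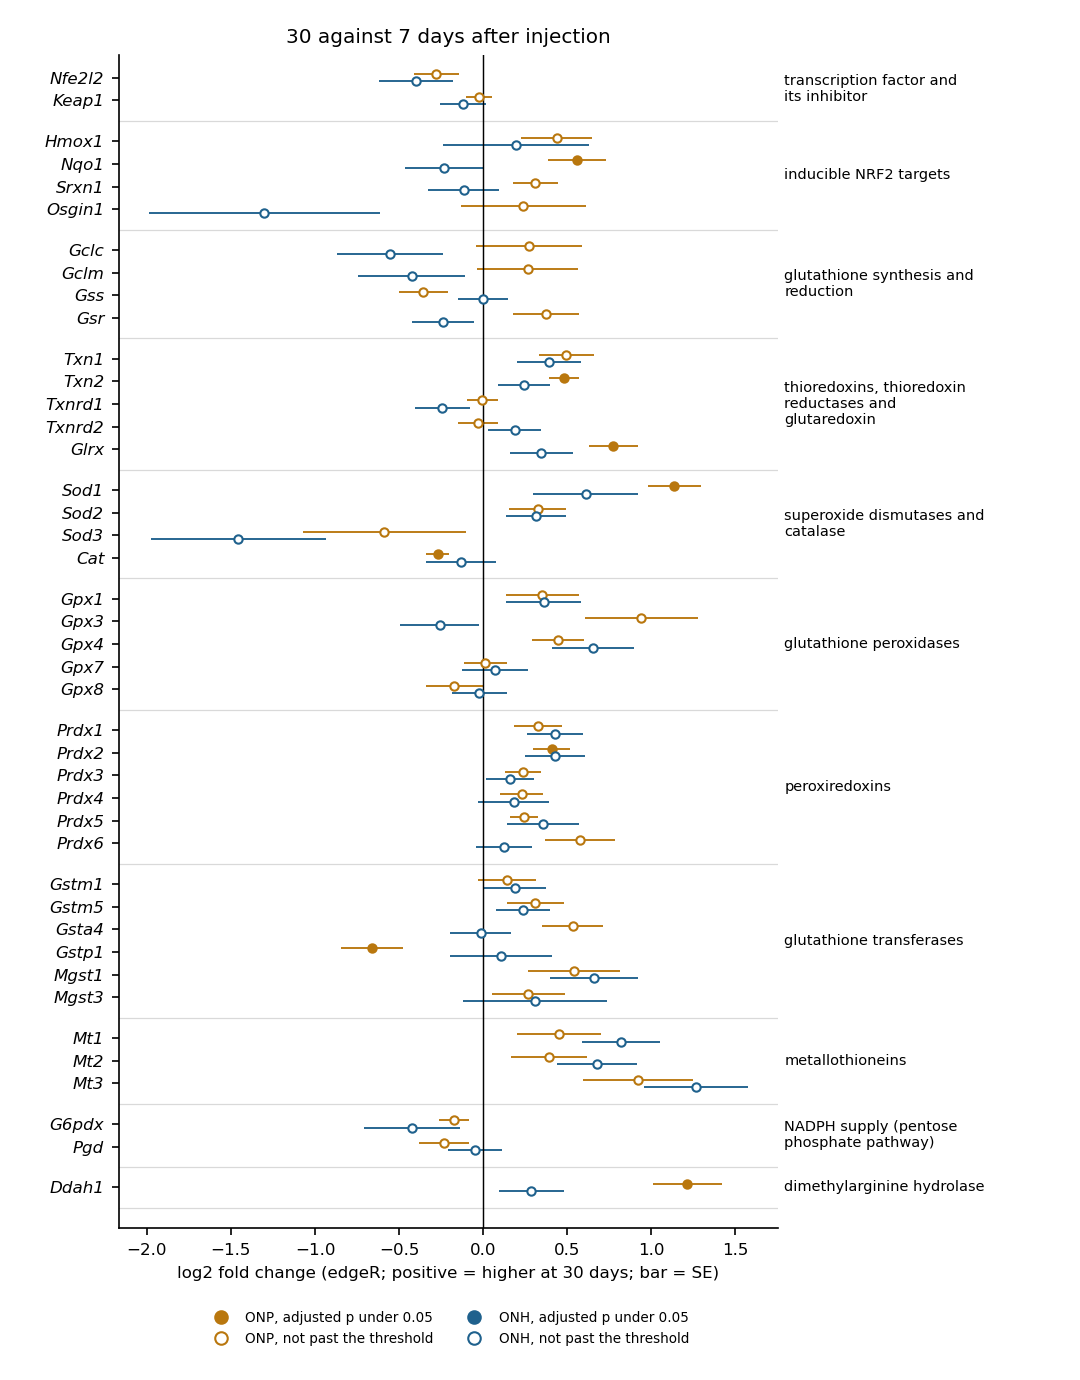
The log2 fold change of 30 against 7 days for the 42 members, ordered by role (x axis, log2 units; bars are SE; orange, ONP; blue, ONH; 7 libraries at 30 days and 4 at 7 days in each; filled, adjusted p under 0.05 by edgeR). 8 ONP points are filled, Ddah1 and Sod1 the farthest right at 1.21 and 1.14, and no ONH point is.

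Sod1, the cytosolic copper and zinc superoxide dismutase, rose in the ONP. It was at 50.7, 54.7, 56.5 and 80.7 CPM in the 4 ONP libraries at 7 days, and its lowest, median and highest values at 30 days were 107, 143 and 164. All 7 libraries at 30 days were above all 4 at 7 days, a 2.198-fold difference (log2FC 1.14 ± 0.16, adjusted p = 0.00119, edgeR). In the ONH, Sod1 was at 62.4, 85.7, 146 and 158 CPM at 7 days and at 112, 147 and 288 (lowest, median, highest) at 30 days. There the groups overlapped and the log2FC of 0.61 did not pass.

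Ddah1 rose 2.32-fold in the ONP. From 43.8, 64.2, 68.8 and 74.6 CPM at 7 days it reached a lowest value of 92.4, a median of 155 and a highest value of 188 at 30 days (log2FC 1.21 ± 0.21, adjusted p = 0.00302, edgeR). The groups did not overlap. In the ONH it was already at 145 CPM or more in every 7 day library, and its median at 30 days was 261 CPM (log2FC 0.29).

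Txn2, the mitochondrial thioredoxin, and Glrx rose without overlap as well. Txn2 was at 143, 145, 147 and 158 CPM at 7 days and at 189, 202 and 239 at 30 days (lowest, median, highest), a log2FC of 0.48 ± 0.09 (adjusted p = 0.00461, edgeR). Glrx was at 17.1, 20.2, 23.5 and 24.6 CPM at 7 days and at 27.1, 37.2 and 44.1 at 30 days, a log2FC of 0.78 ± 0.14 (adjusted p = 0.00480). Prdx2, a cytosolic peroxiredoxin, rose by 0.41 ± 0.11 and Nqo1 by 0.56 ± 0.17 on the log2 scale (adjusted p = 0.0261 and 0.0449).

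Cat and Gstp1 fell in the ONP. Cat went from 204 to 229 CPM across the 7 day libraries to 170.4 to 192 at 30 days, a small change with little spread (log2FC -0.27 ± 0.07, adjusted p = 0.0198, edgeR). Gstp1, the pi class transferase, was at 1140 to 1657 CPM at 7 days and 652 to 1298 at 30 days (-0.66 ± 0.18, adjusted p = 0.0276). The calls of Cat, Gstp1, Prdx2 and Nqo1 were each lost without the 7 day library 6. Those of Gstp1 and Prdx2 were lost also without 7 day library 2 or 30 day replicate 1, and that of Nqo1 without 7 day library 5 or any 1 of 30 day replicates 1, 2, 3, 4 and 6. The adjusted p-values were then 0.0511 to 0.115. With the correction for length and GC content the calls of Nqo1 and Prdx2 were lost as well (adjusted p = 0.155 and 0.182, edgeR).

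**Figure D4:**
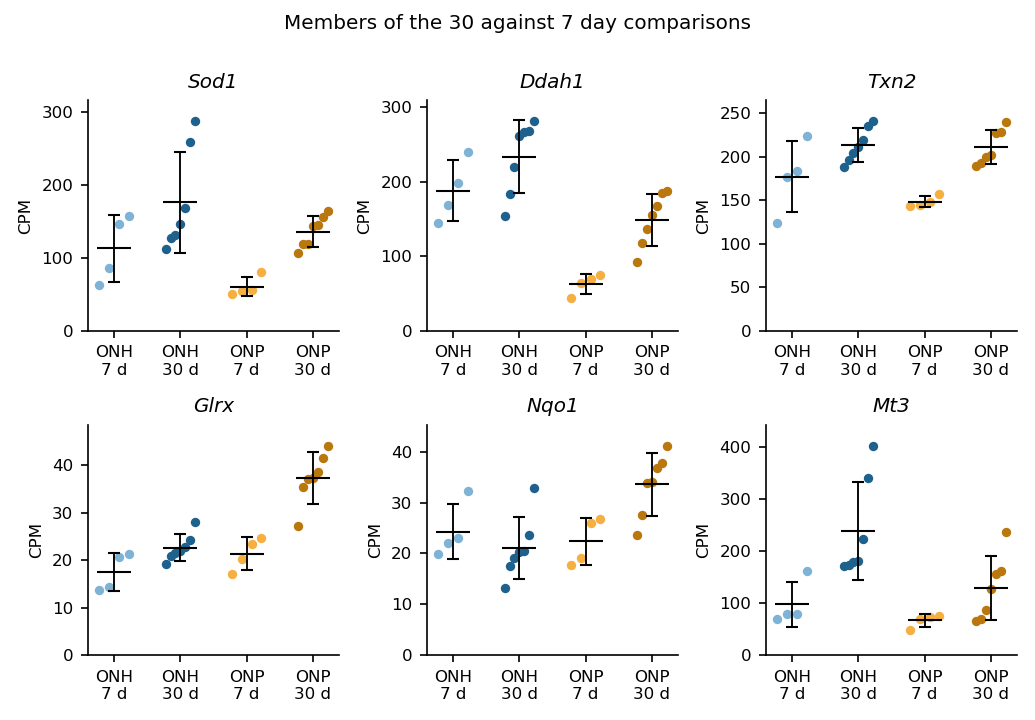
CPM of 6 members in every library (points; black bars are mean ± SD; 4 libraries per group at 7 days and 7 at 30 days; each y axis starts at 0). In the ONP, Sod1, Ddah1, Txn2 and Glrx do not overlap between 7 and 30 days, and in the ONH Mt3 does not overlap, with 4 libraries at 69.5 to 162 CPM at 7 days and 7 at 172 to 403 at 30 days.

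Oligodendrocyte markers moved with these changes. In the ONP 9 of 10 were lower at 30 days (median log2FC -0.88), and so were 5 of 8 endothelial markers. Within the 30 day ONP, replicate 5 had the highest oligodendrocyte marker sum (83800 CPM) and the lowest Ddah1 (92.4 CPM) and Glrx (27.1 CPM) of its group. Replicate 3 had the lowest sum (25900 CPM) and was near the top for Ddah1 (184 CPM) and Glrx (41.6 CPM). The astrocyte marker sum was lowest of the group in replicate 5 (15790 CPM) and highest in replicate 3 (35020 CPM). Replicate 5 also had a microglial sum of 3082 CPM, against 219.9 in replicate 3. These libraries therefore cannot single out oligodendrocytes. With the oligodendrocyte marker sum as a covariate 2 members passed, against 4.76% of all genes. These were Sod1, which remained higher at 30 days (log2FC 1.06, adjusted p = 0.0131, edgeR), and Gpx8, which was lower (-0.70, adjusted p = 0.00693). Ddah1, Txn2 and Glrx were then at 0.71, 0.38 and 0.50 with adjusted p = 0.0520, 0.0648 and 0.1001. The sum and the day go together in these 11 libraries, and the 2 could not be fully separated. Sod1 was the only member of the 8 whose call held across all 21 alternatives.

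**Figure D5:**
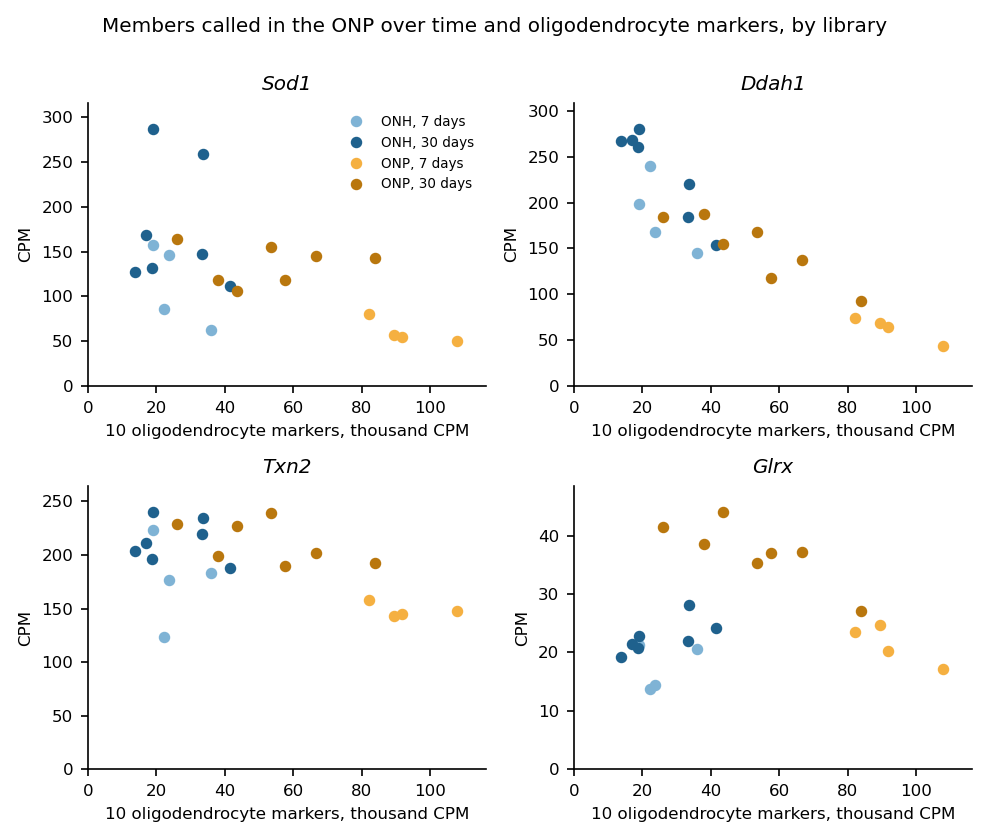
CPM of Sod1, Ddah1, Txn2 and Glrx (y axes, from 0) against the summed CPM of 10 oligodendrocyte markers (x axis, in units of 1000 CPM) in the 22 libraries, coloured by group. The 4 ONP libraries of 7 days lie at the far right (82200 to 108000 CPM) and low in each panel, while Sod1 in the 30 day ONP stays at 107 to 164 CPM over marker sums of 25900 to 83800 CPM.

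In the ONH no member passed between 30 and 7 days by edgeR, and neither did any of the 15668 genes tested (0%). The log2FC was above 0 in 25 members, against 48.4% of all genes. At an unadjusted p under 0.05 there were 8 members (13.9% of all genes). In DESeq2 2 members passed (2.49% of all genes), and in limma-voom 0 (0%). The metallothioneins had 3 of the 4 lowest p-values. Mt3, a metallothionein of the nervous system, was at 69.5, 78.8, 79.4 and 162 CPM at 7 days and its lowest, median and highest values at 30 days were 172, 180 and 403. It was the only member whose groups did not overlap, 1 that was higher (1.76% of all genes) and 0 that were lower (0.53%), against 2.28% of all genes in either direction, and its log2FC was 1.27 ± 0.31 with adjusted p = 0.185.

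Mt1 and Mt2, the inducible pair, were at 0.82 ± 0.23 and 0.68 ± 0.24 on the log2 scale in the ONH (adjusted p = 0.189 and 0.252, edgeR). Mt1 was at 412, 444, 502 and 899 CPM at 7 days and at 764, 914 and 1269 (lowest, median, highest) at 30 days. Mt2 was at 86.6, 107, 110.0 and 207 CPM at 7 days and at 155, 185 and 264 at 30 days. In all 3 genes 1 library, the 7 day ONH library 5, stood high above the other 3 of its group. Without that library the 3 genes passed, with log2FC of 1.13, 1.007 and 1.62 for Mt1, Mt2 and Mt3 (adjusted p = 0.0379, 0.0452 and 0.0428, edgeR), as did 1.04% of all genes. With the correction for length and GC content the values were 0.47, 0.0024 and 0.74 (adjusted p = 0.309, 0.997 and 0.256). That library also had the highest endothelial marker sum of the 22 (381 CPM).

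In the ONP the metallothioneins were at 0.45, 0.39 and 0.92 over the same interval and did not pass. Sod3, the extracellular superoxide dismutase, was the fourth of the ONH group by p-value, at 10.7, 15.9, 31.6 and 99.8 CPM at 7 days and at 5.66, 13.6 and 23.5 at 30 days (lowest, median, highest). Its log2FC of -1.46 ± 0.52 (adjusted p = 0.258, edgeR) came with a wide spread at 7 days, where library 6 was highest. The 4 glutathione synthesis and reduction genes were all negative or at 0 in the ONH, from -0.55 in Gclc to -0.001 in Gss, and none passed.

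Whether the change over time differed between regions was tested as an interaction over all 22 libraries. No member passed by edgeR, against 0.543% of 16748 genes. At an unadjusted p under 0.05 there were 4 members (12.6% of all genes), and the difference was above 0 in 24 members, against 50.9% of all genes. 1 member passed in DESeq2 (2.28% of all genes) and 0 in limma-voom (0.328%). The 4 members with the lowest p-values were Ddah1, Gpx3, Nqo1 and Gsr. For Ddah1 the 30 vs 7 day log2FC was 0.93 ± 0.28 greater in the ONP than in the ONH (adjusted p = 0.142, edgeR). For Gpx3 the difference was 1.2025 ± 0.42 (adjusted p = 0.214), for Nqo1 0.79 ± 0.29 (0.247) and for Gsr 0.62 ± 0.28 (0.359). A call in the ONP alone therefore does not show that the ONP and the ONH changed differently.

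The remaining 80 genes of the NRF2 and glutathione pathways were listed apart from the members. At 30 days 74 were tested between regions, and 25 were higher and 14 lower in the ONH, against 21.8% and 20% of all genes. Gsta1 and Gsta2, alpha class transferases, were at 0.486 to 5.05 and 0.753 to 2.73 CPM in the 30 day ONH and at no more than 0.0462 CPM in the 30 day ONP, below the 3 counts taken as detectable, so that no fold change is given. Maff, a small MAF partner of NRF2, was 1.81 ± 0.45 higher on the log2 scale (adjusted p = 0.00456, edgeR). Nfe2l3, an NRF2 relative, Selenop, a selenium carrier, and Oplah, of the glutathione breakdown cycle, had the largest negative values among those called, -1.42 ± 0.31, -0.97 ± 0.15 and -0.87 ± 0.24.

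At 7 days 74 were tested between regions, with 11 higher and 9 lower in the ONH, against 6.34% and 6.81% of all genes. Among those called, beside Gsta1 and Gsta2, Gstt2, a theta class transferase, had the largest positive value (1.52 ± 0.33). Nfe2l3, Ggt7, a relative of gamma-glutamyltransferase, and Idh1, a source of NADPH, had the largest negative values among those called (-1.57 ± 0.35, -1.23 ± 0.20 and -1.12 ± 0.17).

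Over time in the ONP, 72 of these genes were tested, and 11 rose and 8 fell, against 7.82% and 9.21% of all genes. Among those called, the largest increases were those of the 3 theta class glutathione transferases, Gstt3 (1.3395 ± 0.21), Gstt1 (1.11 ± 0.20) and Gstt2 (0.79 ± 0.21). The largest decreases among those called were those of Gstp2 (-0.80 ± 0.22), Taldo1 of the pentose phosphate pathway (-0.78 ± 0.20) and Ggt7 (-0.65 ± 0.16). In the ONH 75 were tested and none passed, with 7 at an unadjusted p under 0.05.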

How the data were processed

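RNA bound to HA-tagged ribosomes was sequenced from pools of 4 mice. The authors deposited expected counts per gene, made by alignment and estimation (the submitters' processing notes name STAR 2.6.1d, Salmon 0.14.2 and mm10). The deposited counts were already whole numbers and were used as they stood. The authors also deposited log2 scale variance-stabilized values (their notes name R 4.1.0 and DESeq2 1.34.0), which were not used for tests.

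Counts were fitted across all genes with edgeR 4.0.16 (R 4.3.3) by glmQLFTest after filterByExpr and TMM scaling, each comparison on its own groups and the interaction on all 22 libraries, with Benjamini-Hochberg adjusted p under 0.05 as the threshold. Libraries held 16292489 to 33307092 counts, and p-values measure the spread between pools. CPM values are TMM-scaled. Alternatives were DESeq2 1.42.0, limma-voom (limma 3.58.1), other scalings and filters, a length and GC correction (GENCODE M21, GRCm38, 29322 of 29367 IDs matched), covariates, and single libraries left out. Those on oligodendrocyte level and on pairs of libraries left out were chosen after seeing the data. The fits were tested on simulated counts with 200 changed genes. Of 2-fold changes, edgeR recovered 24% for 30 vs 7 days in the ONH and 61% in the ONP. Between regions it recovered 64% at 30 days and 16% at 7 days. Of 4-fold changes it recovered 72% to 90%. False calls were 2.58% to 7.21% of calls with edgeR and 15.4% to 20% with DESeq2. A 2-fold change can thus go uncalled, most often in the ONH over time and between regions at 7 days.

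The 7 day columns could be matched to a region but not to a numbered sample, so they are named by the number in the column and were not paired. The study's methods take both regions from the same mice. Numbers 1, 5 and 6 occur in both 7 day regions and may mark the same pools, which the 7 day p-values treat as independent. At 30 days the titles number the replicates of each region and do not state that equal numbers mark the same pool. The replicate block took them as the same pool. Deviations of same-numbered libraries correlated at 0.077 to 0.471, against means of -0.1 to -0.007 with other numbers. For replicates 1, 2, 4 and 6 the best partner had another number (2, 3, 5 and 3), so the pairing is not certain. Sharing of 31-base words between genes was counted in GENCODE M21 transcripts. No library was a duplicate of another.

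Members and gene lists were chosen with earlier results of these data known. Values in each library were given for Nfe2l2, Keap1, the 4 members with the lowest p in each comparison and at least 1 per role. Other pathway genes were named as up to 3 with the largest change in each direction. The values of Gclc, Gclm and Gss in each library were added after their values were seen.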

Additional observations from a re-analysis of the deposited data

Results flagged for a closer look

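In 12 of 168 gene and group combinations, 1 library stood apart from the others of its group by Dixon's gap ratio, where chance gives about 1 in 20 groups, or 8.4. Replicate 7 of both 30 day groups had high Hmox1, 43.9 CPM in the ONH and 42.3 in the ONP. The 7 day ONH library 5 had high values in 3 genes, Txn1 at 81.3 CPM, Prdx4 at 152 CPM and Mt3 at 162 CPM, and was the library without which the 3 metallothioneins passed between 30 and 7 days. The 30 day ONH replicate 6 was high in Gpx1 (5160 CPM), Gpx4 (2160 CPM) and Txnrd2 (38.1 CPM). The remaining values were Cat at 229 CPM in the 7 day ONP library 6, Prdx3 at a low 119 CPM in the 7 day ONH library 1, Prdx6 at 10900 CPM in the 7 day ONH library 3 and Mgst3 at 46.5 CPM in the 30 day ONP replicate 5.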

How the results depend on the processing

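Counts of members called depended on the processing as follows. For 30 vs 7 days in the ONH, 0 became 2 with DESeq2 (Mt1 and Mt3), against 2.49% of all genes. It became 1 without the 7 day libraries 5 and 6 (Gclc), against 0.314%. Single libraries left out gave 0 to 3, against 0 to 1.04% of all genes. In the ONP, 8 became 15 with DESeq2 (20.2% of all genes) and 13 with library size only (18.7%). The count was 4 with all 4 groups in 1 fit (7.1%) and 18 without the 30 day replicates 5 and 7 (24.3%). With the oligodendrocyte covariate it was 2 (4.76%), and single libraries gave 4 to 16 (9.12% to 20.9%). Between regions at 30 days, 28 became 17 with the oligodendrocyte covariate (25.3% of all genes). Single libraries gave 23 to 28 (37% to 41.9%). At 7 days, 7 became 11 with DESeq2 (19% of all genes) and 11 with library size only (15.1%). The count was 14 with all 4 groups in 1 fit (22.6%) and 12 without the ONH libraries 5 and 6 (15.3%). Single libraries gave 5 to 10 (7.26% to 15.8%). For the interaction, 0 became 1 with DESeq2 (2.28% of all genes). The count was 2 without the 30 day ONP replicates 5 and 7, where 166 of 16517 genes passed. It was also 2 without the 7 day ONH libraries 5 and 6, where 430 of 17808 genes passed. In the main fit 91 of 16748 genes passed, so that calls over all genes rose as well. Single libraries gave 0 (0.127% to 1.86% of all genes). Causes of these differences were not tested. Over all results and alternatives, 4678 values kept their direction and side of the threshold, 122 gained and 110 lost a call, and Mgst1 between regions at 30 days changed sign (-0.0628 with the covariate). With the replicate block at 30 days, 30 members passed, against 44.4% of all genes. Gss was lost, Nfe2l2, Hmox1 and Pgd were gained, and the block changed no other call. The interaction stayed at 0 with the block, against 0.961% of all genes. The 30 vs 7 day comparisons are between different mice and have no pairing. No paired analysis was possible for the 7 day regions. Their columns could be matched to a group but not to a numbered sample of the labels, although some 7 day pools may be shared between regions. Library size only moved the all-gene median of the interaction to 0.16.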
